A study of Drosophila melanogaster with 16 samples.

Results

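The comparison described here is that of ganglion mother cells (GMCs) of 3 h with GMCs of 1.5 h. It takes every raw count library of these 2 groups, 2 libraries of 3 h and 3 libraries of 1.5 h, which are 5 of the 16 libraries of the series. The series profiled poly(A) RNA of type I neuroblasts (NBs), which are stem cells in the brain of Drosophila larvae, and of the GMCs that bud off them. All animals carried the driver ase-GAL4 with the transgenes UAS-stinger::GFP and UAS-dcr2, so a nuclear GFP was made where ase is active, in type I NBs, and passed on to their daughters. Every group carried the same transgenes, and the labels call the cells of every library wild type. NBs were sorted from brains of wandering L3 larvae, kept in culture for 1.5, 3 or 5 h while they went on dividing, and sorted again into NBs and the GMCs born meanwhile. The age of a GMC library is thus the time in culture and an upper limit for the age of its cells: a culture of 3 h also holds GMCs born shortly before the second sort. By the file names, both cell types of 1.5 h were sequenced on 1 flow cell and both of 3 h on another, so age and flow cell coincide and their effects cannot be told apart. Separate cultures per replicate are not stated in the labels. The spread behind every p-value is that between these libraries and may be technical.

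A GMC is made when an NB divides asymmetrically and sends the cortical cargo protein Mira, with its passengers Pros and Brat, into the smaller daughter. Pros then enters the nucleus, represses genes of the stem cell state and the cell cycle, and turns on genes of differentiation, while Numb, inherited at the same division, dampens Notch signalling. A GMC as a rule divides once more, into 2 cells that become neurons or glia. Transcripts inherited from the NB and transcripts made in the GMC itself are both counted in these libraries.

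The GMC libraries held 16817179, 12999883 and 11014127 gene counts at 1.5 h and 6899670 and 15114163 at 3 h, so replicate 1 of 3 h was the shallowest of the whole series. A principal component analysis of the 5 GMC libraries, whose first component took up 58.9% of the variance, placed the libraries of 1.5 h at -23.0, -36.1 and -40.6 and those of 3 h at 28.1 (replicate 2) and 71.6 (replicate 1), so replicate 1 of 3 h lay farthest from all others. Of the cell type markers, nerfin-1, a gene of GMCs and young neurons, separated the cell types. It stood at 197 to 1072 CPM in the 5 GMC libraries and 1.43 to 14.7 CPM in the 6 NB libraries of the same ages. The 15 listed GMC fate factors summed to 11865 to 12625 CPM in GMCs and 4300.5 to 4506 CPM in NBs of 3 h. At 1.5 h the sums were 10589 to 14078 and 4703 to 5881 CPM. The 15 self-renewal factors of NBs overlapped at 3 h, with 3151 to 3278 CPM in GMCs and 3014 to 3355 CPM in NBs. At 1.5 h they summed to 3647 to 4259 and 4336 to 5262 CPM. Single genes of that list went either way. At 3 h mean ase was 814 CPM in GMCs and 314 CPM in NBs, and mean wor was 361 and 214 CPM. The NB genes mira and dpn, with values below, were lower in GMCs than in NBs of 3 h. CPM are depth-scaled counts, here with TMM library sizes, and they are compared below between samples of 1 gene and not between genes. At 1.5 h the non-coding RNA CR43283 made up 20.6%, 19.9% and 15.5% of the counts, at 3 h 27.5% and 21.8%.

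Of 10913 genes tested, 323 (2.96%) differed between GMCs of 3 h and 1.5 h in the edgeR quasi-likelihood test at an adjusted p under 0.05, and 20.5% had an unadjusted p under 0.05. Of the 323, 144 (1.32%) were higher at 3 h and 179 (1.64%) were lower, and these genes are the ones described as having risen or fallen. The genes that rose had a median level of 8.56 CPM at 1.5 h and 32.2 CPM at 3 h, and 60 of the 144 carry only a CG number and 12 are non-coding RNAs with a CR number. The genes that fell had a median of 50.6 CPM at 1.5 h and 24.7 CPM at 3 h, and 55 of the 179 have a CG number. Of all 10913 tested genes 4559 have a CG number and 795 a CR number. Groups that did not overlap were common: 47.9% of all tested genes had both 3 h libraries above or both below the 3 libraries of 1.5 h (23.8% above, 24.1% below). All 144 genes that rose and all 179 that fell were among them. The median log2 fold change over all tested genes was -0.04, with 5714 of 10913 values below 0 and 5198 above. Because these are bulk samples, fewer cells of a type and less of a transcript per cell cannot be told apart.

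How many genes passed depended strongly on the libraries in the fit. All 16 libraries share 1 estimate of the spread. NB replicate 1 of 5 h stood apart from its group, with a Pearson correlation of log2 CPM across genes of 0.934 and 0.927 with the other 2 libraries, which had 0.978 with each other. Without that library the common dispersion was 0.0521 in place of 0.0782, and edgeR called 1190 genes in the GMC comparison (670 higher, 520 lower). Without any 5 h library it called 1184. All 323 genes were among those called in both of these fits. Leaving out 1 GMC library at a time from the fit of all groups left 102, 78 and 52 calls without replicates 1, 2 and 3 of 1.5 h, 39 without replicate 2 of 3 h, and 4 without replicate 1 of 3 h. The last 4 genes (ImpL3, dap, Dgp-1 and CG4892, all higher) mean that every other call named below was lost without that library, and no gene stayed called in all 5 of these fits. All 323 kept their direction in all 5. DESeq2 called 920 genes, 8.52% of 10797. In fits without the 5 h libraries, 50 of the 144 higher and 34 of the 179 lower genes stayed called whichever GMC library was left out. For the genes described in full, the range of the log2 fold change over the 5 fits that leave out a GMC library is given.

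**Figure D1:**
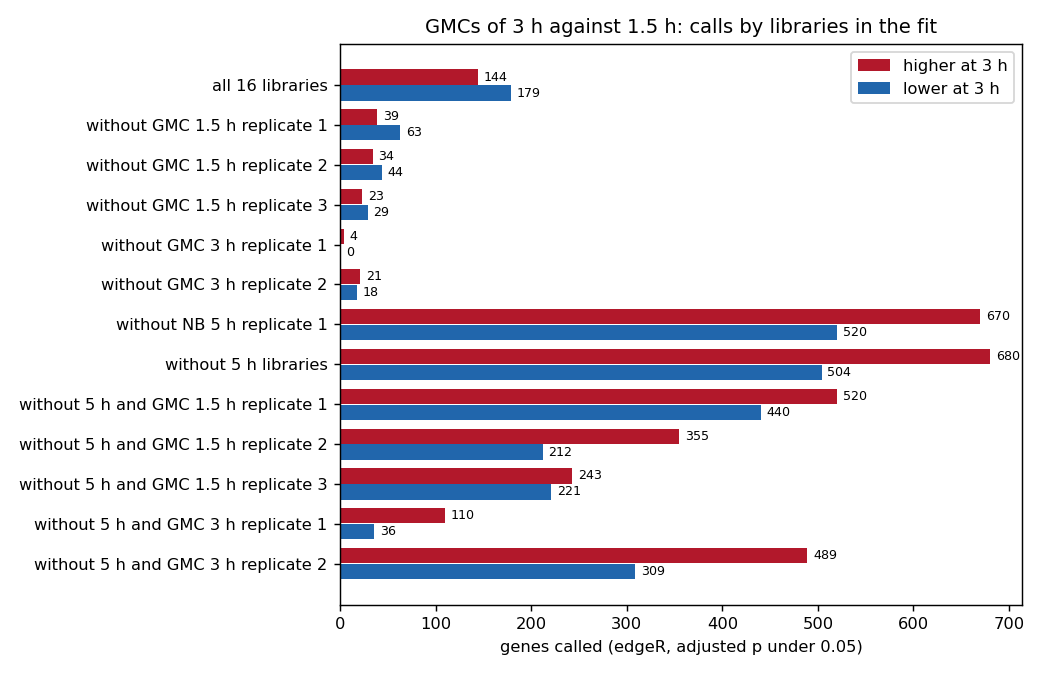
Number of genes called by edgeR (adjusted p under 0.05) in GMCs of 3 h against 1.5 h, higher (red) and lower (blue), for each set of libraries in the fit. The fit of all 16 libraries called 144 higher and 179 lower, the fit without NB replicate 1 of 5 h called 670 and 520, and the fit without GMC replicate 1 of 3 h called 4 and 0.

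Several factors that carry the GMC towards a neuron were higher at 3 h. The zinc finger factor nerfin-1 (FBgn0028999, 3L 909112 to 912319), which keeps young neurons from reverting to an NB-like state, stood at 197, 283 and 327 CPM in GMCs of 1.5 h and at 979 and 1072 CPM in GMCs of 3 h. Every 3 h library lay above every 1.5 h library. The rise was 3.81-fold (log2 fold change 1.93 ± 0.38 SE, edgeR adjusted p = 0.015, n = 3 and 2, range 1.75 to 2.11 with 1 library left out). The cyclin-dependent kinase inhibitor dap (FBgn0010316, 2R 9712321 to 9716256), which blocks Cyclin E/Cdk2 and ends the cell cycle, stood at 68.6, 55.1 and 74.0 CPM and then at 146 and 179 CPM. It rose 2.47-fold (log2 1.30 ± 0.19, edgeR adjusted p = 0.00397, range 1.13 to 1.44). In NBs dap stayed between 5.22 and 8.43 CPM in all 6 libraries of both ages.

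The BTB zinc finger gene lola (FBgn0283521, 2R 10481894 to 10543291), which makes many protein isoforms by alternative splicing and helps to keep neurons differentiated, was counted at 3158, 3231 and 2696 CPM at 1.5 h and at 6032 and 6031 CPM at 3 h. The 2 libraries of 3 h differed by an SD of 1.07 CPM, and both lay above all of 1.5 h. The rise was 1.99-fold (log2 0.99 ± 0.17, edgeR adjusted p = 0.00861). The separately annotated unit pre-lola-G, at the same chromosomal end, rose from a mean of 7.74 ± 2.09 CPM (SD, n = 3) to 36.6 ± 11.6 CPM (n = 2), but 60.9% of its exon length overlaps other annotated genes, so its reads and those of lola may have been split by the counting.

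Transcripts of 2 further GMC factors went the other way. The homeodomain gene pros (FBgn0004595, 3R 11328480 to 11407627), whose protein represses NB genes in the GMC nucleus, stood at 4094, 6762 and 6374 CPM at 1.5 h and at 2111 and 2760 CPM at 3 h. Both 3 h libraries lay below all of 1.5 h, and the fall was 2.36-fold (log2 -1.24 ± 0.29, edgeR adjusted p = 0.0307, range -1.46 to -1.06). At 3 h the level was still above the 460 to 533 CPM of NBs of 3 h. The bHLH gene tap, a neurogenin-like factor of GMCs and young neurons, fell from 615 ± 10.7 CPM (n = 3) to 368 ± 17.1 CPM (n = 2), a 1.67-fold change (edgeR adjusted p = 0.0296). Of 14 tested GMC fate factors 3 rose (nerfin-1, dap and lola) and 2 fell (pros and tap). These are shares of 21.4% and 14.3%, against 1.32% and 1.64% of all genes. The list's median log2 fold change was -0.23. Without single GMC libraries the count went down to 2 and 1, 2 and 0, and 2 and 0 (replicates 1, 2 and 3 of 1.5 h), and to 1 and 0 and 0 and 0 (replicates 1 and 2 of 3 h).

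**Figure D2:**
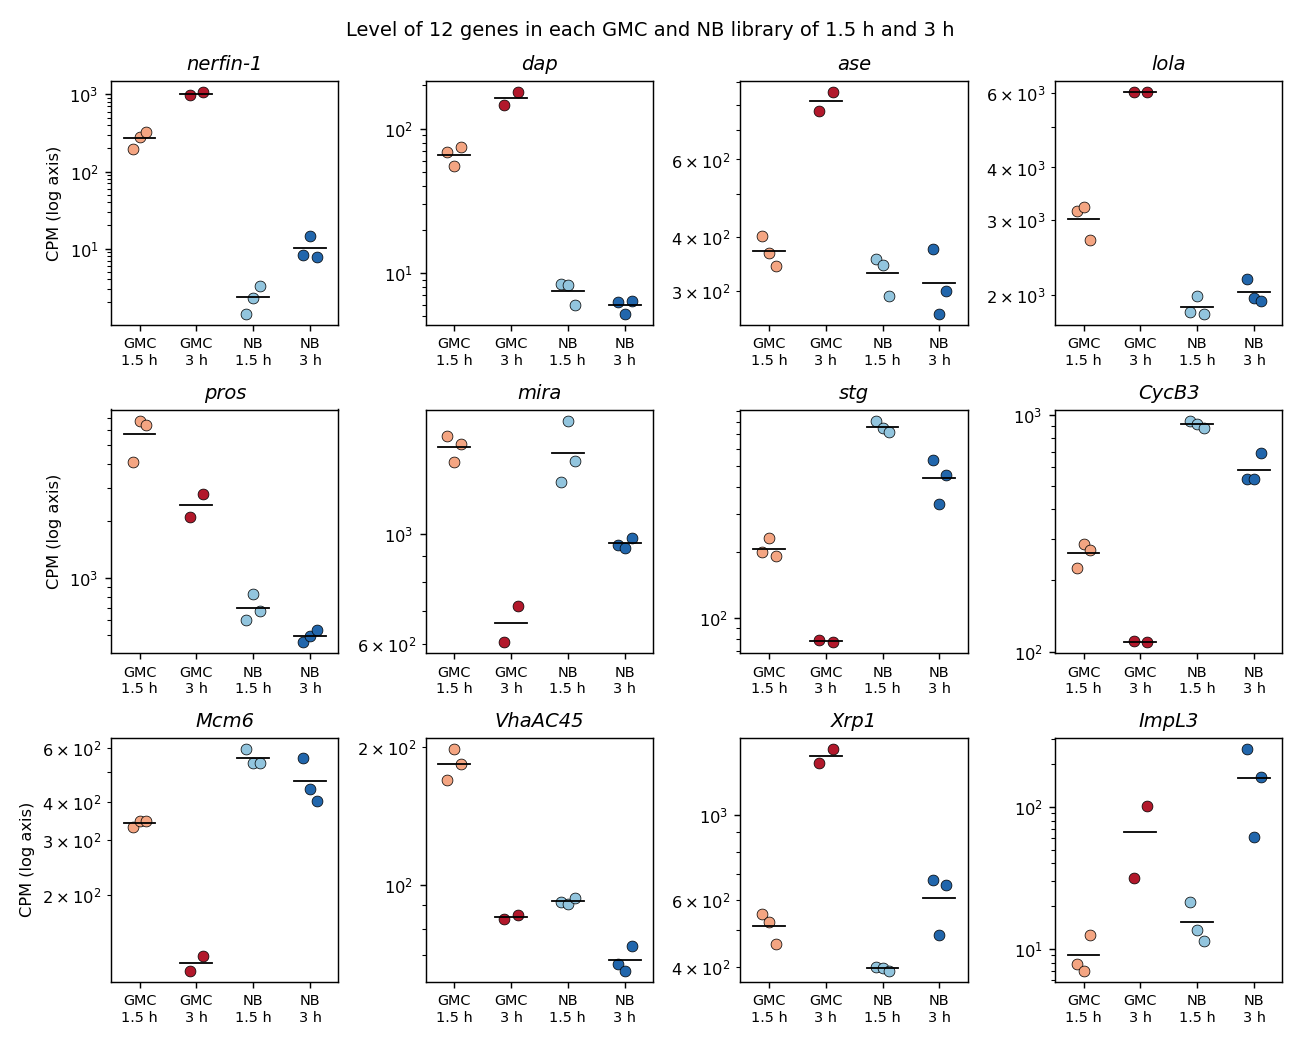
CPM of 12 genes in each GMC library (orange, 1.5 h; dark red, 3 h) and NB library (light blue, 1.5 h; dark blue, 3 h) on log axes that differ between panels, with a line at each group's mean. In GMCs nerfin-1, dap, ase, lola, Xrp1 and ImpL3 were higher in both 3 h libraries than in all 3 of 1.5 h, and pros, mira, stg, CycB3, Mcm6 and VhaAC45 were lower in both.

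The listed self-renewal factors, NB genes that include mira and ase with the roles given below, did not move as 1 group. The coiled-coil protein gene mira (FBgn0021776, 3R 19931799 to 19935120), whose product carries Pros into the GMC, stood at 1574, 1392 and 1516 CPM at 1.5 h and at 605 and 715 CPM at 3 h. It fell 2.26-fold in GMCs (log2 -1.18 ± 0.19, edgeR adjusted p = 0.00723, range -1.32 to -1.06), with no overlap between the ages. In NBs mira went from 1271, 1688 and 1399 CPM to 951, 937 and 980 CPM, which did not pass (log2 -0.60, edgeR adjusted p = 0.161). The transcriptional cofactor nab (edgeR adjusted p = 0.0236) and grh (edgeR adjusted p = 0.0342), the Grainyhead factor expressed late in NB lineages, also fell in GMCs, from 227 ± 24.8 to 109 ± 9.67 CPM and from 419.5 ± 96.1 to 205 ± 15.4 CPM.

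The proneural bHLH gene ase (FBgn0000137, X 460747 to 463176), expressed in type I NBs and in GMCs, rose. Its levels were 402, 367 and 342 CPM at 1.5 h and 773 and 855 CPM at 3 h, a 2.20-fold change (log2 1.14 ± 0.19, edgeR adjusted p = 0.00857, range 1.05 to 1.21). In NBs it stood at 292 to 355 CPM at 1.5 h and at 266 to 374 CPM at 3 h, so the NB groups overlapped. The ase-GAL4 driver of the stock carries regulatory sequence of this gene. Counts per gene do not show whether the transgenes add reads to it.

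The Snail family gene wor stood at 230.4, 257 and 237 CPM and then at 339 and 384 CPM in GMCs, while in NBs it went from 336 to 430.25 CPM down to 185 to 230.3 CPM. The 2 cell types thus lay on opposite sides, with no overlap between ages in either, but neither change passed (log2 0.58, adjusted p = 0.089 in GMCs; log2 -0.82, adjusted p = 0.0771 in NBs, both edgeR). The bHLH repressor gene dpn, a defining gene of NBs, was at 36.0, 45.7 and 56.8 CPM and at 42.4 and 38.7 CPM, so its groups overlapped (log2 -0.19, edgeR adjusted p = 0.732). In NBs dpn was at 93.7 to 185 CPM. Of its exon length 59.3% overlaps another annotated gene, so its counts are uncertain. The zinc finger gene klu was at 89.5 to 139.6 CPM and then at 83.7 and 87.8 CPM (edgeR adjusted p = 0.365). Among the 15 self-renewal factors 1 rose and 3 fell, 6.67% and 20.0% against 1.32% and 1.64% of all genes. Their median log2 fold change was -0.19. Without a single GMC library, at most 1 rose and 2 fell, and without replicate 1 of 3 h none did either.

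Few genes of the Notch pathway passed. Of 24 tested members none rose and 1 fell, a share of 4.17% against 2.96% of all genes, and the median log2 fold change was 0.14. The receptor gene N was at 689, 536 and 435 CPM and at 519 and 463 CPM, and numb, whose product dampens the receptor, at 545, 448 and 370.0 CPM and at 546 and 509 CPM, so both overlapped between ages. The Notch target E(spl)mgamma-HLH, a bHLH repressor of NBs, stood at 21.9 to 28.6 CPM and at 19.7 and 21.1 CPM (edgeR adjusted p = 0.625). Another bHLH repressor of the same gene cluster, E(spl)m8-HLH, was at 51.2, 60.8 and 60.7 CPM and at 148 and 135 CPM. Both 3 h libraries lay above those of 1.5 h, but the difference did not pass (log2 1.30 ± 0.40, edgeR adjusted p = 0.079). The member that fell was E(spl)m6-BFM, a Bearded family gene, at low levels of 2.53, 11.3 and 11.8 CPM and then 0.754 and 1.78 CPM (edgeR adjusted p = 0.0499). Without GMC replicates 2 or 3 of 1.5 h, or either of 3 h, no member was called.

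Among genes of DNA replication and of entry into S phase more fell than rose in GMCs of 3 h. Of 52 tested members, 11 fell and 1 rose, so 21.2% fell against 1.64% of all genes. The median log2 fold change of the list was -0.50 against -0.04 for all genes. Of the 52 values 46 were below 0, as were 5714 of 10913 over all genes. An unadjusted edgeR p under 0.05 was found for 29 members, against 20.5% of all genes. In NBs the list's median was -0.18. There 17 of the 52 members had every 3 h library below every 1.5 h library, against 14.8% of all genes. In GMCs 36 did, against 24.1% of all genes. The MCM helicase subunit Mcm6 (FBgn0025815, X 6674387 to 6677176) was at 330.3, 346 and 346 CPM at 1.5 h and at 113 and 127 CPM at 3 h. Both 3 h libraries lay far below all of 1.5 h, and the fall was 2.84-fold (log2 -1.51 ± 0.19, edgeR adjusted p = 0.00234, range -1.60 to -1.43). In NBs Mcm6 went from 535 to 594 CPM at 1.5 h to 403 to 556 CPM at 3 h, with overlap (log2 -0.25, edgeR adjusted p = 0.464).

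The licensing factor dup, the fly Cdt1, fell from 300.3, 343 and 340.0 CPM to 129 and 162 CPM (log2 -1.17 ± 0.16, edgeR adjusted p = 0.00301). The origin recognition subunit Orc2 fell from 58.3, 57.9 and 62.0 CPM to 12.4 and 24.0 CPM (log2 -1.67 ± 0.29, edgeR adjusted p = 0.00918), the largest fall among the list's called members. The S phase cyclin CycE, whose partner kinase dap inhibits, fell from 292, 325 and 229.8 CPM to 122 and 127 CPM (log2 -1.18 ± 0.29, edgeR adjusted p = 0.0382). For each of these genes the ages did not overlap. The other members that fell were the helicase subunits Mcm2, Mcm3, Mcm5 and dpa (the fly Mcm4), the helicase loading partner Mcm10, the origin subunit Orc5 and the primase subunit DNApol-alpha60. Their log2 fold changes ran from -1.09 for Mcm3 and Orc5 to -0.70 for Mcm2. The 1 member that rose was dap, the inhibitor of Cyclin E/Cdk2 described above. Without replicates 1, 2 and 3 of 1.5 h the list had 5, 3 and 3 members that fell. Without replicates 1 and 2 of 3 h it had none and 3, and without all 5 h libraries 19. The list's median stayed between -0.63 and -0.44 in the 5 fits that left out a GMC library.

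**Figure D3:**
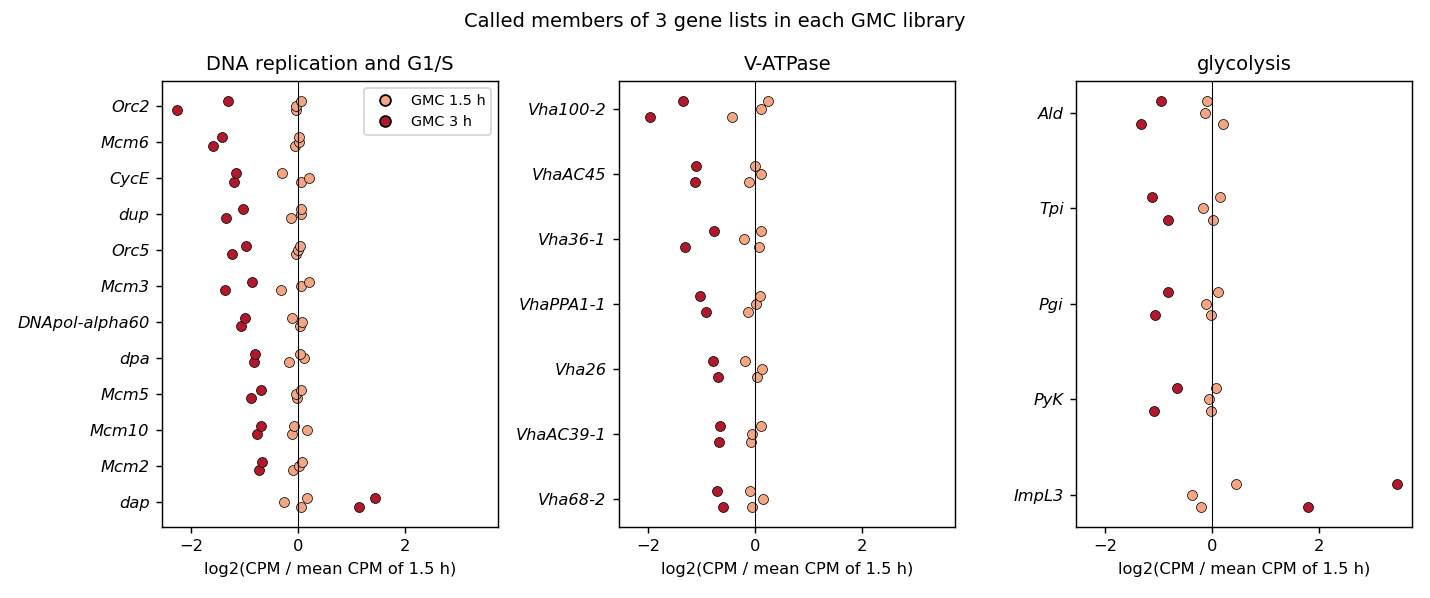
Level of each called member of the DNA replication, V-ATPase and glycolysis lists in every GMC library, as log2 of CPM over the gene's mean CPM at 1.5 h (orange, 1.5 h; dark red, 3 h). Apart from dap and ImpL3, all members shown lie below 0 in both 3 h libraries, Orc2 lowest in replicate 1.

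Few of the genes that take the cell through mitosis passed. Of 64 tested members 4 fell (6.25%, against 1.64% of all genes), 1 rose and 59 were not called. The median log2 fold change was -0.18, and it ran from -0.24 without replicate 2 of 3 h to -0.10 without replicate 1 of 3 h or replicate 2 of 1.5 h. In NBs the list's median was lower, at -0.27. There 28 of the 64 members had every 3 h library below every 1.5 h library, against 14.8% of all genes. In GMCs 25 did, against 24.1% of all genes. The Cdc25 phosphatase gene stg (FBgn0003525, 3R 29251826 to 29255800), the trigger of mitosis in fly development, stood between 192 and 233 CPM in the 3 libraries of 1.5 h and at 78.6 and 77.1 CPM at 3 h. The groups did not overlap, and the fall was 2.67-fold (log2 -1.42 ± 0.27, edgeR adjusted p = 0.0134, range -1.46 to -1.33). In NBs stg went from 715 to 809 CPM to 334 to 533 CPM (log2 -0.79, edgeR adjusted p = 0.183). The mitotic cyclin CycB3 fell from 225, 286 and 269 CPM to 110.6 and 109.8 CPM (log2 -1.24 ± 0.17, edgeR adjusted p = 0.00375). The anaphase promoting complex activator fzy, the fly Cdc20, fell to a mean of 104.4 CPM from 195 CPM (edgeR adjusted p = 0.0212), and gammaTub23C, the gamma tubulin of centrosomes, to 99.5 CPM from 163 CPM (edgeR adjusted p = 0.0237). The member that rose was twe, a second Cdc25 phosphatase best known for its part in meiosis and the early embryo, from 33.4 ± 2.67 CPM (n = 3) to 62.6 ± 11.3 CPM (n = 2; edgeR adjusted p = 0.0325). Without single libraries, 3, 2 and 2 members fell (replicates 1, 2 and 3 of 1.5 h), and none and 1 (replicates 1 and 2 of 3 h), while twe was called in none of these 5 fits.

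Some subunits of the vacuolar H+-ATPase, the proton pump that acidifies lysosomes, endosomes and secretory vesicles, fell as well. Of 24 tested subunits 7 fell (29.2%, against 1.64% of all genes) and none rose. The median log2 fold change was -0.62, and 22 of 24 values were below 0 (5714 of 10913 over all genes). The accessory subunit VhaAC45 (FBgn0262515, 2R 9207561 to 9209774) was at 169, 198 and 184 CPM at 1.5 h and at 84.0 and 85.9 CPM at 3 h. It fell 2.16-fold with no overlap (log2 -1.11 ± 0.17, edgeR adjusted p = 0.00397, range -1.17 to -1.05). Vha100-2, 1 of several forms of the membrane subunit a, fell from 20.7 ± 4.78 CPM (n = 3) to 6.71 ± 2.03 CPM (n = 2), 2.99-fold (edgeR adjusted p = 0.00918). The proteolipid subunit VhaPPA1-1 fell 1.96-fold (edgeR adjusted p = 0.0259) and Vha26, the stalk subunit E, 1.66-fold (edgeR adjusted p = 0.0279). Vha68-2, Vha36-1 and VhaAC39-1 fell by 1.58 to 1.98-fold.

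In NBs the same 24 subunits had a median log2 fold change of -0.03, and 3 of them had all 3 h libraries below all 1.5 h libraries, where 14.8% of all genes did. In GMCs 16 of the 24 did, where 24.1% of all genes did. The groups hold 3 and 3 libraries in NBs and 3 and 2 in GMCs, so these shares have different backgrounds. The test of GMC change against NB change called none of these subunits in edgeR or DESeq2. Without replicates 1, 2 or 3 of 1.5 h, 2 subunits fell in each fit, without replicates 1 and 2 of 3 h none and 1, and without the 5 h libraries 8. The median stayed between -0.71 and -0.57 when a GMC library was left out.

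Of 12 tested genes of glycolysis 4 fell (33.3%, against 1.64% of all genes), the gene of lactate dehydrogenase rose and 7 were not called, with a median log2 fold change of -0.55. The aldolase gene Ald was at 117, 92.4 and 95.4 CPM at 1.5 h and at 40.5 and 52.4 CPM at 3 h (log2 -1.12 ± 0.22, edgeR adjusted p = 0.0145). Pgi, which converts glucose 6-phosphate, fell from 86.8 ± 6.56 CPM (n = 3) to 45.2 ± 4.99 CPM (n = 2; edgeR adjusted p = 0.0129), and the pyruvate kinase gene PyK from 178 ± 9.34 to 98.7 ± 21.0 CPM (edgeR adjusted p = 0.0227). Triose phosphate isomerase, Tpi, fell 1.97-fold (edgeR adjusted p = 0.0319).

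The gene ImpL3 (FBgn0001258, 3L 6259105 to 6262694), which encodes lactate dehydrogenase, stood at 7.85, 7.01 and 12.5 CPM at 1.5 h and at 31.6 and 101 CPM at 3 h. Both 3 h libraries lay above those of 1.5 h but differed widely between themselves. The rise was 7.36-fold (log2 2.88 ± 0.55, edgeR adjusted p = 0.0136), and its size ranged from 1.79 to 3.47 on the log2 scale with 1 GMC library left out. In NBs the gene went from 21.2, 13.5 and 11.4 CPM to 255, 61.0 and 162 CPM (log2 3.38, edgeR adjusted p = 0.0284), 1 of the 11 genes called there. Without single libraries, 1, 2 and 1 glycolytic genes fell (replicates 1, 2 and 3 of 1.5 h), and none in both fits without a 3 h library.

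Genes of oxidative phosphorylation and of the cytosolic ribosome gave no calls in edgeR: 0 of 75 and 0 of 88. An unadjusted edgeR p under 0.05 was found for 5 and 1 of them, where 20.5% of all genes had one. Their median log2 fold changes were -0.26 and -0.16, and 67 of 75 and 74 of 88 values were below 0. Over all genes 5714 of 10913 values were below 0. DESeq2 called no gene of either list.

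**Figure D4:**
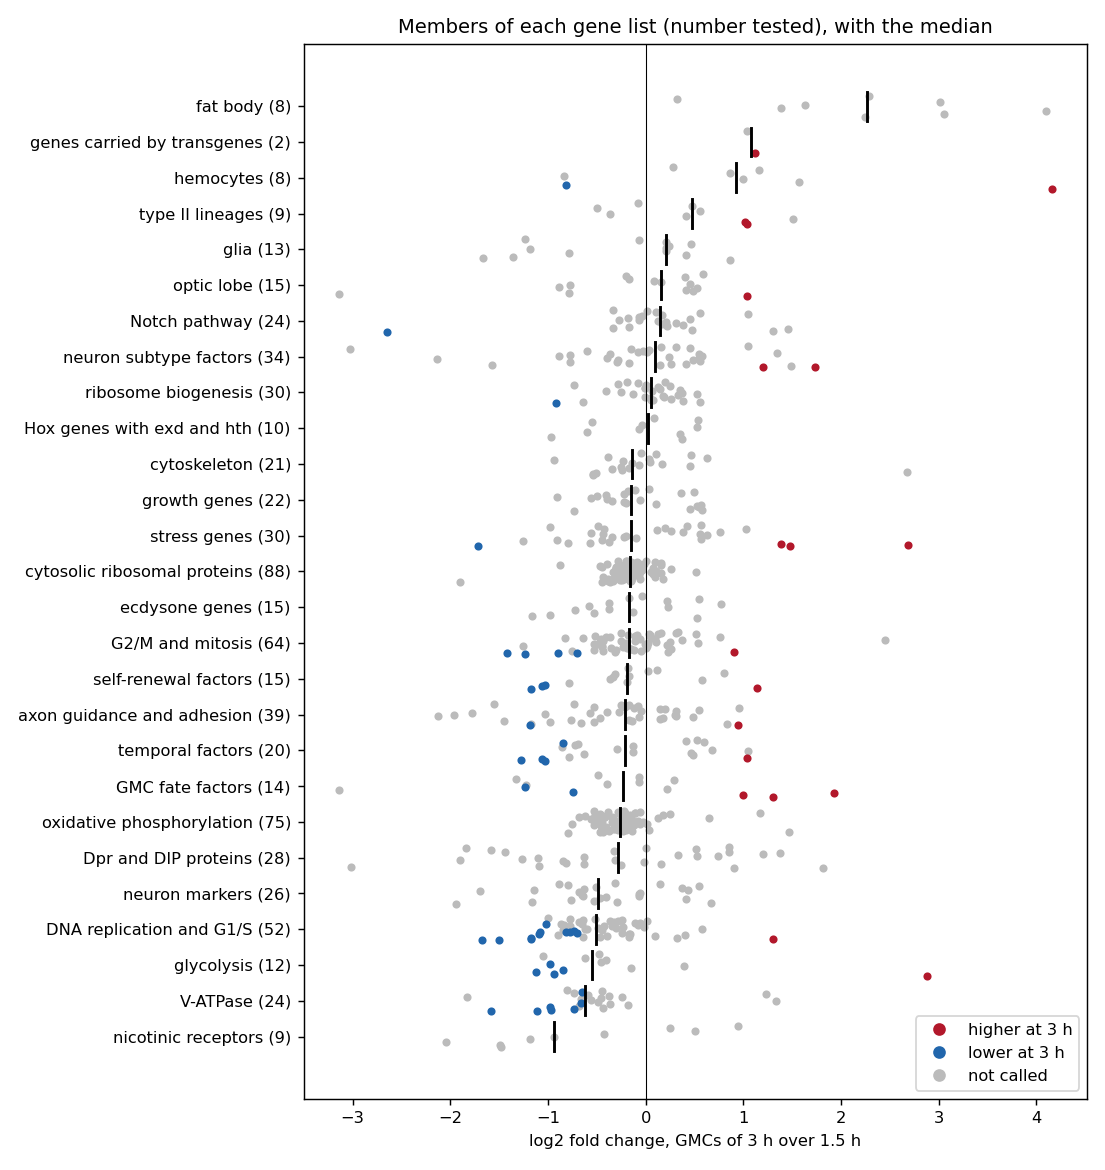
Log2 fold change in GMCs of 3 h over 1.5 h of every tested member of each gene list, with members called by edgeR in red (higher) or blue (lower), others in grey, and a black bar at the list's median. The V-ATPase median lies at -0.62, that of DNA replication at -0.50, and that of the fat body markers, none of them called, at 2.26.

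Temporal and lineage factors, transcription factors that change with the age of the NB and set the kind of neuron made, mostly fell where they passed. Of 20 tested temporal factors 4 fell and 1 rose, 20.0% and 5.0% against 1.64% and 1.32% of all genes. The median log2 fold change was -0.21 (-0.48 without replicate 2 of 3 h, and -0.25 to -0.16 without any other GMC library). The nuclear receptor gene svp (FBgn0003651, 3R 12258737 to 12302785), a switching factor of NB lineages, was at 186, 206 and 161 CPM at 1.5 h and at 85.0 and 67.3 CPM at 3 h. It fell 2.43-fold without overlap (log2 -1.28 ± 0.22, edgeR adjusted p = 0.00918, range -1.45 to -1.13). In NBs svp was at 86.0 to 106 CPM and then at 48.5 to 60.1 CPM (log2 -0.82, edgeR adjusted p = 0.13). The related nuclear factors dan and danr fell from 48.6 to 23.2 CPM (edgeR adjusted p = 0.0194) and from 18.1 to 10.1 CPM (edgeR adjusted p = 0.0481) as group means, and grh is named above. The orphan nuclear receptor gene tll rose, from 22.9, 21.1 and 28.4 CPM to 45.0 and 53.8 CPM (log2 1.04 ± 0.24, edgeR adjusted p = 0.0298). Outside this list the zinc finger gene sqz, which takes part in choosing neuron types in the nerve cord, fell from 261 ± 21.0 CPM (n = 3) to 94.5 ± 17.5 CPM (n = 2), 2.75-fold (edgeR adjusted p = 0.0129).

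Of 34 neuron subtype factors 2 rose (5.88%, against 1.32% of all genes) and none fell. The Pax family gene gsb-n went from 13.4, 13.6 and 14.1 CPM to 24.9 and 37.6 CPM (log2 1.20 ± 0.24, edgeR adjusted p = 0.0157), and the homeobox gene inv, the neighbour and relative of engrailed, from 9.63 ± 1.13 CPM (n = 3) to 32.1 ± 8.38 CPM (n = 2; log2 1.73 ± 0.39, edgeR adjusted p = 0.0289). The Hox genes with exd and hth gave no call among 10 in edgeR or DESeq2, and none had an unadjusted edgeR p under 0.05. Without single GMC libraries, 2, 1 and 1 temporal factors fell (replicates 1, 2 and 3 of 1.5 h) and none without either 3 h library. The rise of tll was called in none of these 5 fits, and neither was any subtype factor.

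Genes of the mature neuron were not called at 3 h. Of 26 neuron markers edgeR called 0, with 3 at an unadjusted p under 0.05, and DESeq2 called 2, both lower. Below 0 were 20 of the list's 26 values, and 5714 of 10913 over all genes. The list's median log2 fold change was -0.49, and it ran from -0.82 without replicate 2 of 3 h to -0.25 without replicate 1 of 3 h. The RNA binding protein gene elav, a general neuron marker, was at 682, 660.1 and 537 CPM at 1.5 h and at 924 and 1073 CPM at 3 h, above all of 1.5 h without passing (log2 0.67 ± 0.24, edgeR adjusted p = 0.127). Of its exon length 34.2% overlaps another gene. The active zone gene brp was at 30.4, 63.4 and 62.0 CPM and at 31.1 and 40.3 CPM, with overlap. The sodium pump subunit nrv3 was at 40.8, 60.0 and 54.3 CPM and at 16.4 and 29.4 CPM (log2 -1.16 ± 0.57, edgeR adjusted p = 0.259). The GABA receptor subunit Rdl was at 6.14, 14.97 and 12.7 CPM and at 1.88 and 3.80 CPM (edgeR adjusted p = 0.12).

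None of the 9 nicotinic acetylcholine receptor subunits tested passed in edgeR or DESeq2, and 2 had an unadjusted edgeR p under 0.05. Their median log2 fold change was -0.94, and it moved between -1.87 and -0.49 when a GMC library was left out, the former without replicate 2 and the latter without replicate 1 of 3 h. The subunit nAChRalpha1, for instance, was at 17.2, 30.8 and 25.6 CPM at 1.5 h and at 6.78 and 14.4 CPM at 3 h. Among 39 genes of axon guidance and adhesion 1 rose and 1 fell, shares of 2.56% each against 1.32% and 1.64% of all genes. With 1 GMC library left out the rise was called in none of the 5 fits, and the fall in 1, that without replicate 1 of 1.5 h. The netrin receptor gene unc-5 fell from 87.1, 101 and 82.6 CPM to 39.0 and 40.5 CPM (log2 -1.18 ± 0.24, edgeR adjusted p = 0.0178), and in NBs it went from 85.7 to 107 CPM to 39.1 to 48.6 CPM (edgeR adjusted p = 0.0525). The neural adhesion gene Nrg rose from 479.9, 373 and 298 CPM to 769 and 706 CPM (log2 0.94 ± 0.25, edgeR adjusted p = 0.0481). Of 28 Dpr and DIP genes, cell surface partners that label synaptic types, edgeR called 0, with 7 at an unadjusted p under 0.05, and DESeq2 called 2 higher and 1 lower.

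Stress genes gave 3 rises and 1 fall among 30 tested, where 1.32% of all genes rose and 1.64% fell. The list's median log2 fold change was -0.15, and it turned to 0.03 without replicate 2 of 1.5 h. The bZIP gene Xrp1 (FBgn0261113, 3R 18914968 to 18926989), induced by DNA damage and ribosome defects, stood at 550.3, 524 and 460.3 CPM at 1.5 h and at 1363 and 1485 CPM at 3 h. It rose 2.78-fold without overlap (log2 1.48 ± 0.22, edgeR adjusted p = 0.00397, range 1.40 to 1.54). In NBs of the same flow cells it went from 392 to 402 CPM to 486 to 675 CPM (log2 0.61, edgeR adjusted p = 0.219). CG6272, named Irbp18 in current annotation and the bZIP partner of Xrp1, rose from 7.42 ± 1.17 CPM (n = 3) to 19.3 ± 3.79 CPM (n = 2; edgeR adjusted p = 0.034). Gadd45, induced by stress kinases and DNA damage, rose from 1.57, 1.88 and 1.07 CPM to 6.40 and 12.8 CPM (log2 2.69 ± 0.48, edgeR adjusted p = 0.0101), and it was also called in NBs (log2 2.78, edgeR adjusted p = 0.0284). The small heat shock gene Hsp67Bc fell from 27.6, 53.2 and 51.3 CPM to 12.2 and 14.3 CPM (log2 -1.72 ± 0.41, edgeR adjusted p = 0.0346). Without replicates 1, 2 and 3 of 1.5 h, 2, 2 and 1 stress genes rose, and without replicates 1 and 2 of 3 h none and 1. The fall of Hsp67Bc was called in 1 of these fits, that without replicate 1 of 1.5 h.

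Where the mean at 3 h was at least 20 CPM, the 3 largest rises of called genes were those of srp, sut4 and CG31551. The GATA factor gene srp, known from hemocytes and fat body, went from 2.73, 2.39 and 2.67 CPM to 64.2 and 29.4 CPM (log2 4.16 ± 0.93, edgeR adjusted p = 0.0278). Its counts per library were 28 to 40 at 1.5 h and 341 and 379 at 3 h. In NBs srp was at 1.76, 2.41 and 3.41 CPM and then at 11.5, 20.2 and 14.4 CPM, also without overlap. The sugar transporter gene sut4 went from 2.18, 2.48 and 1.51 CPM to 44.8 and 18.7 CPM (log2 3.93 ± 0.87, edgeR adjusted p = 0.0259), and CG31551 from 5.53, 6.24 and 5.96 CPM to 82.7 and 36.5 CPM (log2 3.33 ± 0.65, edgeR adjusted p = 0.015). In these 3 genes replicate 1 of 3 h was higher than replicate 2, as in 107 of the 144 genes that rose. Replicate 1 was the higher one in 59 of the 179 genes that fell and in 5467 of all 10913 tested genes. The non-coding RNA CR45620 rose from 3.29 ± 1.08 CPM (n = 3) to 27.6 ± 11.6 CPM (n = 2; edgeR adjusted p = 0.00857), and the bHLH gene dimm, which drives the neuropeptide cell type, from 3.10 ± 0.981 to 20.8 ± 0.744 CPM (edgeR adjusted p = 0.0447).

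The largest fall among all called genes was that of E(spl)m6-BFM, at the low levels given above. With the same limit of 20 CPM, which a gene that fell meets through its 1.5 h level, the largest was that of CG12643. This gene, for which no role is given here, was at 62.3, 64.5 and 56.8 CPM and then at 17.9 and 17.4 CPM (log2 -1.80 ± 0.27, edgeR adjusted p = 0.00397). The transcription factor gene apt went from 232, 275 and 191 CPM to 75.9 and 73.7 CPM (log2 -1.64 ± 0.20, edgeR adjusted p = 0.00234). The triglyceride lipase gene bmm fell from 34.6, 42.8 and 41.01 CPM to 9.61 and 14.7 CPM (log2 -1.67 ± 0.23, edgeR adjusted p = 0.00301), and the peroxisomal import receptor gene Pex7 from 363, 299 and 343 CPM to 129.6 and 106 CPM (log2 -1.51 ± 0.21, edgeR adjusted p = 0.00375). Both of these also fell in NBs (bmm log2 -1.12, edgeR adjusted p = 0.0328; Pex7 log2 -1.17, edgeR adjusted p = 0.0284). Further falls were those of the Toll receptor gene Tl (3.22-fold), Rif1, a regulator of replication timing (3.00-fold), and the mismatch repair gene Msh6 (2.75-fold).

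Markers of other cells were followed because the sort could have let them in. The 8 fat body markers had a median log2 fold change of 2.26 in GMCs (1.08 without replicate 2 of 3 h) and 1.57 in NBs, with none called by edgeR (5 at an unadjusted p under 0.05) and 2 called higher by DESeq2. Their summed level was 22.9 to 26.9 CPM in GMCs of 1.5 h and 29.2 to 99.9 CPM in GMCs of 3 h, and 20.6 to 29.0 CPM and 18.4 to 149 CPM in NBs. Of 8 tested hemocyte markers 1 rose (srp) and 1 fell (crq, a scavenger receptor), 12.5% each against 1.32% and 1.64% of all genes. Above 0 were 6 of 8 values, and 5198 of 10913 over all genes. The median log2 fold change was 0.93 in GMCs (0.57 without replicate 1 of 3 h) and 1.01 in NBs. With 1 GMC library left out, srp was called in none of the 5 fits and crq in 1. The summed level of all 10 listed hemocyte markers was 104.7 to 122 CPM at 1.5 h and 118 to 152 CPM at 3 h in GMCs. In NBs it was 159 to 168 CPM and 161 to 167 CPM. The collagen genes Col4a1 and vkg and the peroxidasin gene Pxn were higher in both 3 h libraries than in all of 1.5 h without passing (edgeR adjusted p = 0.27, 0.354 and 0.618). The hemocyte gene Hml was at 0.684 to 1.91 CPM at 1.5 h and at 0.565 and 1.01 CPM at 3 h, and He was at 0 in both 3 h libraries. Among 13 glial markers none passed in edgeR (4 at an unadjusted p under 0.05) or DESeq2. Their median log2 fold change was 0.20 and ran from 0.01 to 0.16 with 1 GMC library left out. The summed level of all 14 listed glial markers was 685 to 871 CPM at 1.5 h and 953 to 970.05 CPM at 3 h, without overlap. Of these the transporter gene Eaat1 was at 359, 370.0 and 268 CPM and then at 407 and 479 CPM (edgeR adjusted p = 0.237). The glial factor repo was at 2.40 to 4.79 CPM and then at 1.51 and 2.33 CPM. Of 9 markers of type II lineages 2 rose (22.2%, against 1.32% of all genes), tll and the zinc finger gene opa (edgeR adjusted p = 0.0481). The summed level of the 9 markers was 71.0 to 80.4 CPM at 1.5 h and 123 to 136 CPM at 3 h. tll was also the 1 called gene of 15 optic lobe markers (6.67%, against 2.96% of all genes). The part of other cells in the results above was not tested.

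Of the 2 genes that the transgenes carry, w, the eye colour gene that marks insertions, rose from 237 ± 17.4 CPM (n = 3) to 515 ± 58.8 CPM (n = 2; edgeR adjusted p = 0.0333). Dcr-2 was at 8465, 12487 and 9250.4 CPM and then at 18203 and 23014 CPM, without passing (log2 1.03 ± 0.31, edgeR adjusted p = 0.0715). For CR43283, whose share of counts is given above, the log2 value was 0.59 ± 0.38 (edgeR adjusted p = 0.392). Because this 1 transcript takes so large a share, the scaling was also computed without it, which gave 129 higher and 270 lower genes in place of 144 and 179, and moved the median of all genes from -0.04 to -0.10.

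Fewer genes were called in NBs of the same 2 flow cells. In edgeR 11 of 10913 genes (0.101%) differed between NBs of 3 h and 1.5 h, 8 higher (0.0733%) and 3 lower (0.0275%), against 323 in GMCs. This count too depended on 1 library: without NB replicate 1 of 5 h it was 459, against 1190 in GMCs. The 2 comparisons share no library but do share their flow cells. Of the 144 genes that rose in GMCs 123 had a log2 fold change above 0 in NBs, and of the 179 that fell 169 had one below 0. Of all 10913 tested genes 5228 had one above 0 in NBs and 5683 one below 0. The change was larger in GMCs for 139 of the 144 and 178 of the 179, a direction that choosing the genes by their GMC change favours. Among all 10913 tested genes it was larger in GMCs for 6655. Over all 10913 genes the log2 fold changes of the 2 cell types had a Pearson correlation of 0.57 and a Spearman correlation of 0.51, as a description across genes that share libraries, flow cells and scaling and are no replicates.

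**Figure D5:**
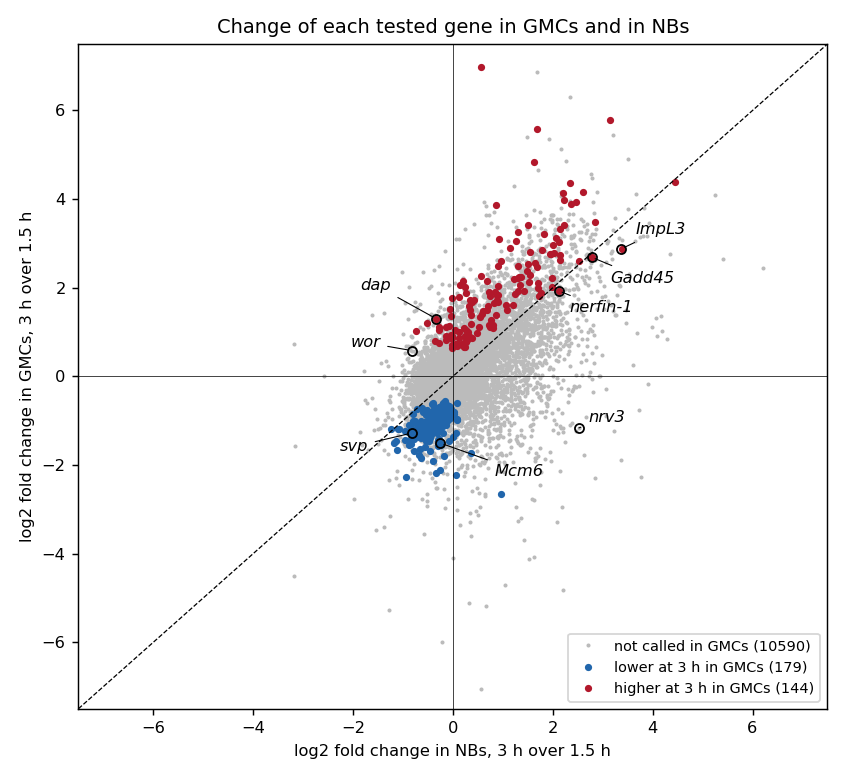
Log2 fold change from 1.5 h to 3 h of each of 10913 tested genes in NBs (x axis) and GMCs (y axis), with genes called in GMCs in red (144 higher) and blue (179 lower), others in grey, and 8 genes circled. The dashed line marks equal changes; nerfin-1, ImpL3 and Gadd45 lie near it, dap and wor lie above 0 in GMCs and below 0 in NBs, and nrv3 the other way round.

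The difference of the GMC change and the NB change was tested directly for every gene. In edgeR no gene passed at an adjusted p under 0.05, while 683 of 10913 (6.26%) had an unadjusted p under 0.05, and DESeq2 called 32 of 8678 (0.369%), Mcm6, wor, dap and ase among them (DESeq2 adjusted p = 5.39e-05, 6.21e-05, 9.75e-05 and 0.0031). The smallest edgeR p belonged to dap, whose change was 1.64 higher in GMCs than in NBs on the log2 scale (adjusted p = 0.159), followed by wor (1.40, adjusted p = 0.17). For Mcm6 the difference was -1.26 (edgeR adjusted p = 0.173) and for ase 1.21 (edgeR adjusted p = 0.283). For nerfin-1 the difference was -0.19 (edgeR adjusted p = 0.993): it went from 1.43, 2.29 and 3.29 CPM to 8.14, 14.7 and 7.76 CPM in NBs (log2 2.12, edgeR adjusted p = 0.0555). Without NB replicate 1 of 5 h in the fit, 5 genes passed this test, dap, wor, gsb-n, sofe and tara, each with a change higher in GMCs and an edgeR adjusted p of 0.0372.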

How the data were processed

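Poly(A) RNA was sequenced in 16 libraries, and reads were counted per gene. Of these, the 5 GMC libraries of 1.5 h and 3 h are compared. The deposited counts are raw whole numbers for 16364 genes. The 5 summary entries at the end of each library, which name no gene, were kept out of library sizes and tests. In the GMC libraries compared, reads in no gene came to 10.5% to 13.6%. Per the submitters' processing notes, HTSeq 0.6.1, TopHat2 2.1.1, BWA 0.7.12, DESeq2 1.12.4 and bedtools 2.26.0 were used, in roles that are not stated. Not given in the sources used here are genome build, annotation, strand setting and any use of the molecular barcodes in counting. Per the labels' protocols, cDNA was primed with oligo(dT) and fragmented by tagmentation. Symbols and positions come from 1 of the authors' deposited tables, whose mean signal over libraries was read but not tested. Of its genes 16208 were in the release 6 reference annotation used here, and start and end were identical for 16086. Exons of overlapping genes were found in that annotation.

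Groups follow the labels. edgeR 4.0.16 (limma 3.58.1, R 4.3.3) fitted all 16 libraries in 6 groups of cell type and age with TMM scaling. Of the genes, filterByExpr at a minimum count of 10 and total of 15 passed 10913 and left out 5451. The common dispersion was 0.0782. Quasi-likelihood tests were two-sided with Benjamini-Hochberg adjustment over all tested genes, and genes with an adjusted p under 0.05 were called. CPM use TMM library sizes, errors are SDs between libraries or standard errors of the fit, and folds come from fitted log2 values (prior count 2 only for log2 CPM in the component analysis). Lists are described by counts and medians beside all genes. The 27 lists, the comparison and the alternatives were chosen with earlier results of these data known, and 4 more lists after their values were seen. Libraries were checked for repeats: the GMC libraries differed beyond sampling noise in every pair within an age (chi-square over its degrees of freedom 19.4 to 46.3).

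Named genes follow a rule: the 15 largest changes each way among called genes with no overlap and a mean of at least 20 CPM in the higher group, up to 4 members per list by adjusted p, the 10 smallest p of the difference between cell types, and a set of NB and GMC genes. The rule gave 140 genes. The text gives some of these and 26 outside the rule, chosen after their values were seen. On simulated counts for 10913 genes with 200 changed, the GMC comparison recovered 21% of 2-fold and 76% of 4-fold changes, with 3.96% false calls and 0 in the wrong direction. The simulation gave each unchanged gene the same mean in all libraries. It held no difference between cell types or flow cells and no outlying library, so its rates may not hold for the real counts. Alternatives were median-ratio scaling, scaling without CR43283, DESeq2 1.42.0, no filter on low counts, fewer groups in the fit, a replicate block, removal of a gene-length trend and each library left out.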

Additional observations from a re-analysis of the deposited data

Results flagged for a closer look

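For 9 of the genes named here the GMC libraries of 3 h lay on one side of all those of 1.5 h and the NB libraries of 3 h on the other side. The difference of the 2 changes was tested over all genes. In edgeR none of the 9 passed, and in DESeq2 7 did: wor, sofe, ktub, gsb-n, opa, nrv3 and tara, with DESeq2 adjusted p-values of 6.21e-05, 8.00e-05, 0.000235, 0.00235, 0.00279, 0.00712 and 0.0202. Without NB replicate 1 of 5 h wor, sofe, gsb-n and tara passed in edgeR too (adjusted p = 0.0372 each). On the log2 scale the GMC change minus the NB change was 1.72 for gsb-n, 1.75 for opa, 1.40 for wor, 1.15 for sofe, 1.04 for ktub and 1.48 for tara. These 6 genes were higher at 3 h in GMCs and lower in NBs, with edgeR adjusted p-values of 0.173, 0.283, 0.17, 0.173, 0.173 and 0.356. It was -3.69 for nrv3, -2.01 for nAChRalpha1 and -1.69 for repo (edgeR adjusted p-values 0.486, 0.792 and 0.758), which were lower in GMCs and higher in NBs. The last 3 stood under 3 CPM in every NB library. No group of 4 or more libraries exists in the comparison, so single libraries were not screened for outliers.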

How the results depend on the processing

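The count of called genes in GMCs (323) stayed within 1.5 times under median-ratio scaling (375), scaling without CR43283 (399), no filter on low counts (260) and the replicate block (411). It was 920 in DESeq2, 1589 with only the 2 GMC groups in the fit, 1184 without the 5 h libraries, 637 with the gene-length trend removed and 1190 without NB replicate 1 of 5 h, an alternative added after seeing the data. Leaving out each GMC library gave 4 to 102 calls, and doing so without the 5 h libraries, also added later, 960, 567 and 464 (replicates 1, 2 and 3 of 1.5 h) and 146 and 798 (replicates 1 and 2 of 3 h). In NBs (11 calls) the count was 225 in DESeq2, 17 without the filter, 152 with only the 2 NB groups, 491 without the 5 h libraries, 24 with the replicate block, 43 with the length trend removed, 459 without NB replicate 1 of 5 h and 0 to 3 with a library left out. The difference of changes gave 0 calls except 32 in DESeq2 and 5 without NB replicate 1 of 5 h. The spread that enters the fit changes with the libraries by construction; other causes were not tested. Among named genes, direction reversed for 2 that were not called: N (0.015 without replicate 1 of 1.5 h, with and without the 5 h libraries; -0.30 to 0.015 over single libraries left out) and dpn (0.0016 without replicate 3 of 1.5 h; -0.34 to 0.0016). Whether replicate numbers pair libraries could not be decided. Deviations of same-numbered GMC libraries correlated at 0.139 and 0.0462 over 2 pairs, but the 2 libraries of 3 h deviate from their mean as mirror images. Correlations of GMC with NB libraries were not computed for this. With the block, 287 of the 323 stayed called. Replicate 1 of 3 h, 1 of only 2 libraries of that age, holds 6899670 counts, which limits what can be seen in scarce transcripts.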

Other observations

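Further gene groups were put together after their values were seen, so their counts describe these libraries and support nothing. The median log2 fold change of 16 tested genes of fatty acid breakdown was -0.74 against -0.04 for all genes. None rose, and 6 fell (37.5%, against 1.64% of all genes). Beside the lipase bmm these were whd, the carnitine palmitoyltransferase that brings fatty acids into mitochondria, Etf-QO, which passes their electrons on, scu, a dehydrogenase, the carnitine acetyltransferase gene CRAT and Thiolase, which makes the last cut. The level of whd was 76.9, 83.7 and 82.2 CPM in GMCs of 1.5 h and 34.1 and 36.0 CPM in GMCs of 3 h (log2 -1.21 ± 0.21, edgeR adjusted p = 0.00918), and in NBs it was 87.7 to 102 CPM and then 60.9 to 82.3 CPM (edgeR adjusted p = 0.286). Over the 16 genes the median in NBs was -0.33, and 9 had every 3 h library below every 1.5 h library. In GMCs 12 did. The shares of all genes were 14.8% in NBs and 24.1% in GMCs. Of 14 peroxins, proteins that build peroxisomes, Pex7 and Pex19 fell (14.3%, against 1.64% of all genes). All 14 values were below 0, as were 5714 of 10913 over all genes. Without replicates 1, 2 and 3 of 1.5 h, 4, 5 and 2 fatty acid genes fell, and without replicates 1 and 2 of 3 h none and 1.

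The median log2 fold change of 35 DNA repair genes was -0.33. None rose, and 8 fell (22.9%, against 1.64% of all genes). They included the mismatch repair genes Msh6 and Pms2, the helicase gene Blm, mu2, which acts at chromosome ends and breaks, Rif1, the checkpoint kinase gene lok (the fly Chk2) and the nuclease gene Snm1. The level of mu2 was 166, 215 and 186 CPM and then 75.0 and 80.8 CPM (log2 -1.28 ± 0.22, edgeR adjusted p = 0.00918). Over the 35 repair genes the median in NBs was -0.26. There 16 of them had every 3 h library below every 1.5 h library, against 14.8% of all genes. In GMCs 17 did, against 24.1% of all genes. Without replicates 1, 2 and 3 of 1.5 h, 3, 2 and 1 of them fell, and none without either 3 h library. Of 72 mitochondrial ribosomal protein genes 2 fell (2.78%, against 1.64% of all genes). Their median log2 fold change was -0.50 in GMCs and -0.06 in NBs. In GMCs 69 of 72 values were below 0, as were 5714 of 10913 over all genes. In GMCs 44 of the 72 had both 3 h libraries below all of 1.5 h, against 24.1% of all tested genes, and in NBs 1 of the 72 did, against 14.8% of all tested genes.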
